A study of Mus musculus with 10 samples.

Results

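The Bcl2 family decides whether a cell keeps or loses the integrity of its mitochondria, and the genes examined here were chosen by name: Bcl2, Bcl2l1, Mcl1, Bax, Bak1, Bcl2l11, Bid, Bbc3, Pmaip1 and Bmf, 10 genes in all. A gene was represented by a probe set that carries its symbol alone, and by the brightest one over the 10 arrays where it had several. By that rule 9 of the 10 genes were measured among 22180 genes, and Bax, an effector of mitochondrial permeabilization, was not analysed here. Messenger RNA was measured on 1 array per sample in mouse T helper cells, CD4-positive lymphocytes isolated from spleens of wild-type female Balb/c mice of 10 to 14 weeks. Every culture was activated through the T cell receptor with anti-CD3 at 4 µg/ml and through costimulation with anti-CD28 at 30 ng/ml. To obtain Th17 cells (n = 4), 20 ng/ml of IL-6, 5 ng/ml of TGF-beta and 10 ng/ml of IL-23 were added together with 10 µg/ml of anti-interferon-gamma. To obtain Th2 cells (n = 3), 100 ng/ml of IL-4 was added with the same dose of anti-interferon-gamma. Th0 cultures (n = 3), the control, received neither cytokines nor that antibody, so its effect and that of the cytokines cannot be told apart in a comparison with Th0. Medium was renewed after 72 h. No source used here gives the time of harvest or says whether animals were pooled.

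The proteins of this family act on the outer mitochondrial membrane. Guardians (Bcl2, Bcl-xL from Bcl2l1, and Mcl1) hold the effectors Bax and Bak in check, and BH3-only proteins (Bim from Bcl2l11, Bid, Puma from Bbc3, Noxa from Pmaip1, and Bmf) either occupy the guardians or activate the effectors, after which cytochrome c is released and caspases are activated. In T cells, cytokines that signal through the common gamma chain sustain Bcl2 and Mcl1, and Bim removes many activated cells when such signals end.

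Each value is the authors' log2 expression after robust multi-array averaging, so a difference of 1 is a 2-fold change in signal. Values of different genes come from different probes and are not set against each other. T cell markers were present on every array: Cd3e, a chain of the T cell receptor complex, lay between 9.36 and 10.44 and Cd4 between 7.09 and 8.76. Il17f, a signature cytokine of Th17 cells, was at 10.26 in Th17, 6.22 in Th2 and 5.41 in Th0 cells on average, higher in Th17 by 4.04 than in Th2 and by 4.85 than in Th0 (limma, adjusted p = 0.00321 and 0.000676). Il17a was at 10.33, 6.81 and 6.11 in the same order, but did not pass (adjusted p = 0.328 and 0.18). Il23r, the IL-23 receptor, was at 5.26, 3.66 and 3.48, and passed against Th0 (difference 1.78, adjusted p = 0.0473) but not against Th2 (adjusted p = 0.0866). Gata3, the factor that directs the Th2 fate, was at 5.83, 7.52 and 7.75 in the same order. The Th2 mean of Gata3 was not above the Th0 mean (difference -0.23, adjusted p = 0.927), and Il4 was at 7.17 in Th17, 8.98 in Th2 and 8.27 in Th0 cells. Arrays of a group were not alike. On the first principal component of all genes, which held 35.8% of the variance, Th17 replicate 4 (37.5) and Th2 replicates 2 and 3 (38.8 and 55.8) lay apart from the other 7 arrays, which were at -1 or below. Markers of basophils and mast cells averaged 5.68 and 5.85 on Th17 replicates 2 and 3 and 6.93 on Th0 replicate 1, and 4.40 or less on each other array. Marker means lay between 3.41 and 4.65 for B cells, 2.99 and 4.39 for myeloid cells and 3.91 and 4.58 for CD8 and NK cells over the 10 arrays, and no gene of these lists was called. Single markers were high on single arrays: Th17 replicate 1 had the neutrophil gene S100a8 at 7.16, against 3.74 or less elsewhere, and Ighm, the heavy chain of B cell IgM, at 10.41, and Th0 replicate 2 had Ighm at 9.68 and Cd8b1, a CD8 chain, at 7.21. Their part in the values below was not tested. Values without the 3 arrays apart, where Th2 replicate 1 is the lone Th2 array, are given beside the results below.

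No family member passed the test in any comparison. A linear model with the 3 group means was fitted to all 22180 genes with limma, and a gene was called at a Benjamini-Hochberg adjusted p under 0.05. In Th17 against Th0 cells 0 of 9 members were called, where 0.104% of all genes were called, and 1 member had an unadjusted p under 0.05, as 5.17% of all genes did. In Th2 against Th0 cells 0 of 9 members were called, beside 0% of all genes, and 1 member had an unadjusted p under 0.05, beside 6.34% of all genes. In Th17 against Th2 cells 0 of 9 were called, beside 0.0766% of all genes, and 1 had an unadjusted p under 0.05, beside 6.25%. A moderated F test over the 3 groups called 0 of 9 members, beside 0.0631% of all genes, and 1 member, Bak1, had an unadjusted p under 0.05, beside 6.2%. The groups overlapped for every measured member in all 3 comparisons. Of all genes, 7.57%, 8.43% and 5.6% had groups that did not overlap in Th17 against Th0, Th2 against Th0 and Th17 against Th2. With shares this small, none among 9 members does not set the family apart from other genes. The median difference of the 9 members was -0.04 in Th17 against Th0, 0.12 in Th2 against Th0 and 0.02 in Th17 against Th2, and that of all genes was -0.02, -0.01 and -0.01.

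Bcl2 and Mcl1 were both low on the 3 arrays that stood apart. Promoters of these genes are shown with those of Bak1, which was low on the Th2 arrays among the 3, and of Bcl2l11, which had the widest range of all members. The sequences are the 250 bases before the annotated start in RefSeq (GRCm38.p6), written 5′ to 3′ on the gene's strand. Capitals mark matches on either strand to GGGCGG (the GC box of Sp1-type factors), CACGTG (an E-box), GTAAACA (the core of FoxO sites), TTCNNNGAA (a STAT site) or TGACG (an element of CREB sites).
Bcl2 promoter, chr1:106714291-106714540, minus strand: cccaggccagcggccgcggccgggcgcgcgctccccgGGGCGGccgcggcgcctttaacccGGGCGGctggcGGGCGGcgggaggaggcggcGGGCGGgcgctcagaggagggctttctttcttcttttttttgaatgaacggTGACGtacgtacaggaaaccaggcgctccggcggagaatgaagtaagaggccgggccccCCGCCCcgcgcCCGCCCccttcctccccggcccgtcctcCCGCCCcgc
Mcl1 promoter, chr3:95658471-95658720, plus strand: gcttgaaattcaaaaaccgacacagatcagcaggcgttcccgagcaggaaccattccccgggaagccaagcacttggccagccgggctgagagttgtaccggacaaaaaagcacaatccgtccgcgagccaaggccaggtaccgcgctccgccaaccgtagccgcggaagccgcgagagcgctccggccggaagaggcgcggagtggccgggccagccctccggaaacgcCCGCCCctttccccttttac
Bak1 promoter, chr17:27028628-27028877, minus strand: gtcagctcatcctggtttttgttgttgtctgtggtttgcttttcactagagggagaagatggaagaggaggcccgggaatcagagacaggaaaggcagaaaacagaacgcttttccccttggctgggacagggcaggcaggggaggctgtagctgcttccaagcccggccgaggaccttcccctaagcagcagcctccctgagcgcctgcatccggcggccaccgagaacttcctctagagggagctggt
Bcl2l11 promoter, chr2:128125788-128126037, plus strand: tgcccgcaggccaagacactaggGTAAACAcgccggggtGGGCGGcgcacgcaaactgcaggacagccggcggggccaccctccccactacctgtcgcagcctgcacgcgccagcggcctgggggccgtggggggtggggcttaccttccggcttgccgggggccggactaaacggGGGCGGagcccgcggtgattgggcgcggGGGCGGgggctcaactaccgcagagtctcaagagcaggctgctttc
The Bcl2 window held 7 GC boxes and 1 TGACG, that of Mcl1 held 1 GC box, and that of Bak1 held none of the 5 motifs. The Bcl2l11 window held 3 GC boxes and 1 GTAAACA, which began 227 bases before the start. Of 32851 promoter windows of this length 32.7% held GGGCGG, 6.02% CACGTG, 3.17% GTAAACA, 7.02% TTCNNNGAA and 17.8% TGACG. Bcl2l11 has 2 windows in the table, and the one at the outer end of the gene is printed. These matches describe letters and not bound sites.

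Bcl2 (probe set 17226043), the guardian that resting and cytokine-sustained T cells depend on, was at 9.09, 9.21, 9.44 and 7.53 on Th17 replicates 1 to 4. It was at 9.67, 7.73 and 7.76 on Th2 replicates 1 to 3 and at 9.08, 9.24 and 9.50 on the Th0 replicates. So 7 arrays from all 3 populations lay within 0.59 of each other, and the 3 arrays that stood apart lay at least 1.32 below them. The lowest and the highest value of the series were on a Th17 and a Th2 array. Bcl2 averaged 8.82 ± 0.87 in Th17 (SD, n = 4), 8.38 ± 1.11 in Th2 and 9.27 ± 0.21 in Th0 cells (SD, n = 3 each). The difference was -0.46 ± 0.52 (SE) in Th17 against Th0 (limma, adjusted p = 0.999), -0.89 ± 0.56 in Th2 against Th0 (adjusted p = 0.827) and 0.43 ± 0.52 in Th17 against Th2 (adjusted p = 0.963). Its 95% interval in Th2 against Th0 ran from -2.11 to 0.34. Without the 3 arrays that stood apart the differences were -0.03, 0.39 and -0.42, the last 2 with the sign turned and resting on Th2 replicate 1 alone. The spread of Bcl2 within groups, a residual SD of 0.83, exceeded that of 98.3% of all genes. A second, dimmer Bcl2 probe set (17216395) was at 6.50, 6.77, 6.53 and 4.50 in Th17 cells, 7.12, 5.33 and 4.95 in Th2 cells and 6.42, 6.62 and 6.93 in Th0 cells, so it was low on the same 3 arrays.

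**Figure D1:**
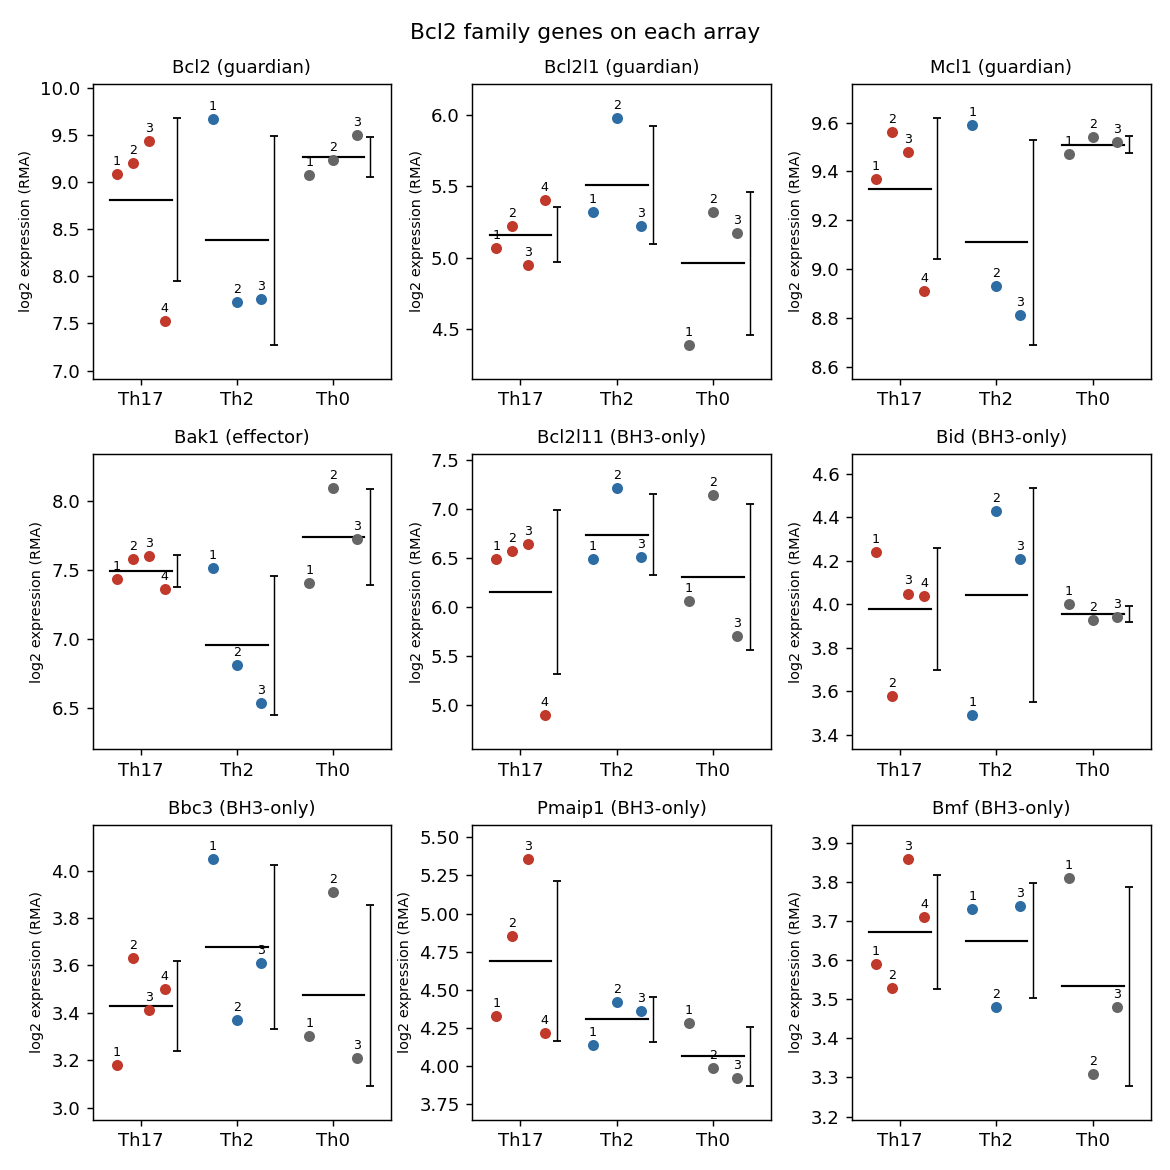
Log2 expression (vertical axes, each with its own range) of the 9 measured Bcl2 family genes on each array, by population; points are arrays numbered by replicate, horizontal lines group means and bars 1 SD (n = 4 Th17, 3 Th2 and 3 Th0). Bcl2 and Mcl1 were low on Th17 replicate 4 and Th2 replicates 2 and 3, and no gene separates the populations.

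Mcl1 (probe set 17407826), a short-lived guardian needed at most stages of T cell life, was lowest on the same 3 arrays as Bcl2, over a smaller range. It was at 9.37, 9.56, 9.48 and 8.91 on Th17 replicates 1 to 4, at 9.59, 8.93 and 8.81 on the Th2 replicates and at 9.47, 9.54 and 9.52 on the Th0 replicates. The 3 Th0 values were within 0.07 of each other, and the 3 low values were again those of the arrays apart. The difference was -0.18 ± 0.21 (SE) in Th17 against Th0, -0.40 ± 0.23 in Th2 against Th0 and 0.22 ± 0.21 in Th17 against Th2 (limma, adjusted p = 0.999, 0.815 and 0.949). Without the 3 arrays apart these were -0.04, 0.08 and -0.12. The second Mcl1 probe set (17400418) was at 8.68, 8.73, 8.64 and 8.28 in Th17 cells, 8.90, 8.31 and 8.20 in Th2 cells and 8.09, 8.67 and 8.55 in Th0 cells. Its lowest value was thus on Th0 replicate 1, the array highest in basophil and mast cell markers, and not on an array apart. With the mean of both probe sets the Mcl1 difference was -0.02 in Th17 against Th0 and -0.18 in Th2 against Th0.

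Other gene groups moved with Bcl2 and Mcl1 on these arrays. The mean of 19 cell cycle genes was 7.51, 6.49, 7.13 and 6.69 on Th17 replicates 1 to 4, 7.96, 6.37 and 6.44 on the Th2 replicates and 7.45, 7.86 and 7.91 on the Th0 replicates. All 19 genes had lower means in Th17 than in Th0 and in Th2 than in Th0 cells, with 0 called. Of them 6 and 5 had an unadjusted p under 0.05, beside 5.17% and 6.34% of all genes. Ccnb2, a mitotic cyclin, differed by -1.26 and -1.98, and Cenpe, a mitotic motor protein, by -1.18 and -1.31. With the 3 arrays apart left out, 15 of the 19 were higher in Th2 than in Th0 cells and 19 were lower in Th17 than in Th0 cells. The mean was low on the 3 arrays with low Bcl2, but also on Th17 replicate 2, where Bcl2 was at 9.21. The mean of 10 T cell identity genes was 9.17, 9.21, 9.25 and 8.68 in Th17, 9.38, 8.71 and 8.72 in Th2 and 9.11, 9.61 and 9.05 in Th0 cells, and so lowest on the same 3 arrays. Cd4 was at 7.15 on Th17 replicate 4 and at 7.23 and 7.09 on Th2 replicates 2 and 3, against 7.96 or more elsewhere. Single genes of the list did not all follow its mean. On these arrays in the same order Zap70 was at 7.08, 8.64 and 8.16, against 7.46 to 8.24 elsewhere. Thy1 was at 9.79, 8.83 and 8.80 there, against 9.46 to 10.34 elsewhere. T cell activation genes averaged 8.63 on Th17 replicate 4 and 9.54 and 9.23 on Th2 replicates 2 and 3, above the remaining arrays (7.67 to 8.44). Of the 14 genes of this list 11 were higher and 3 lower in Th2 against Th0 (median 1.02). Of them 7 had an unadjusted p under 0.05 there, beside 6.34% of all genes. In Th17 against Th2 0 were higher and 14 lower, and in Th17 against Th0 7 were higher and 7 lower. Without the 3 arrays apart 8 were higher and 6 lower in Th2 against Th0 (median 0.19). Among them Tnf was at 8.76 in Th17, 9.83 in Th2 and 8.18 in Th0 cells. The costimulatory receptor Tnfrsf9 was at 7.28, 8.38 and 8.92, and neither gene passed with all arrays. Tnfrsf9 differed by -1.64 in Th17 against Th0, and by -1.98 without the 3 arrays apart. The part of any of these in the Bcl2 and Mcl1 values was not tested, and in bulk RNA fewer cells of a type and less RNA per cell cannot be told apart.

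**Figure D2:**
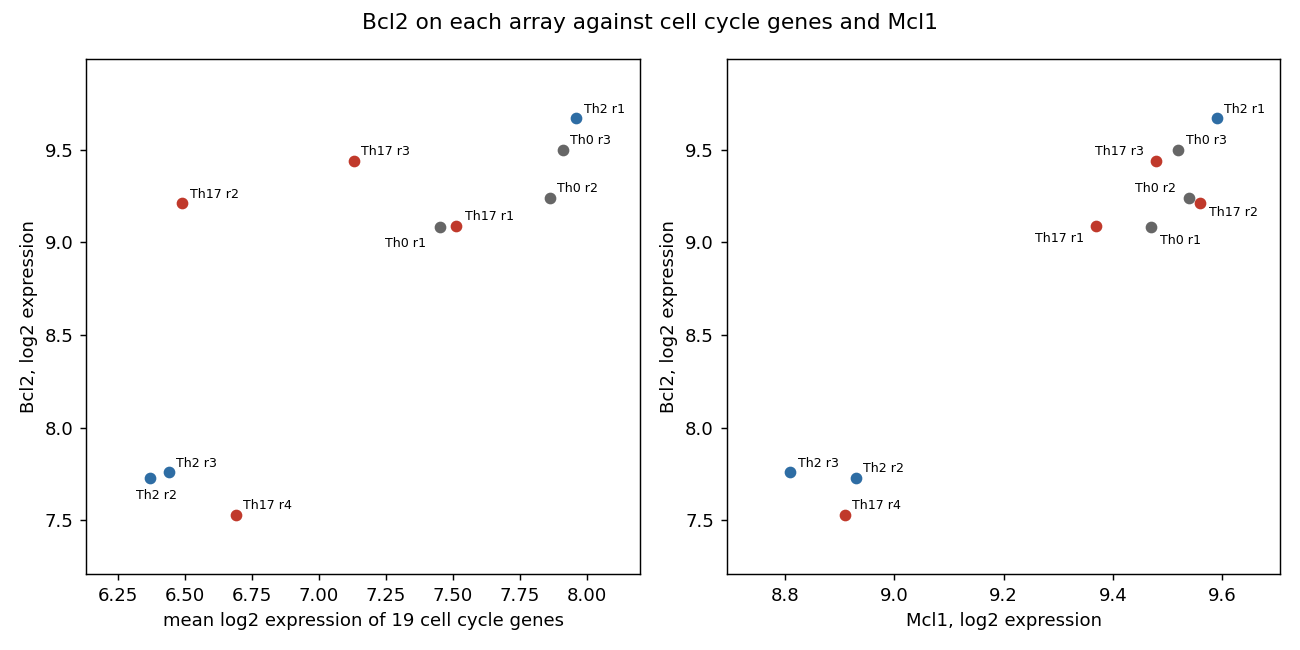
Log2 expression of Bcl2 (vertical) against the mean log2 expression of 19 cell cycle genes (left) and against Mcl1 (right); each point is 1 array (red Th17, blue Th2, grey Th0; r = replicate). Th17 replicate 4 and Th2 replicates 2 and 3 form the low group, and Th17 replicate 2 combines a low cell cycle mean (6.49) with Bcl2 at 9.21.

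Bcl2l1 (probe set 17392991), which encodes the guardian Bcl-xL that T cells induce after costimulation, did not share this pattern. It was at 5.07, 5.22, 4.95 and 5.40 in Th17 cells, 5.32, 5.98 and 5.22 in Th2 cells and 4.39, 5.32 and 5.17 in Th0 cells. Th2 replicate 2 was the highest array and Th0 replicate 1 the lowest, and the other 8 lay between 4.95 and 5.40. The difference was 0.20 ± 0.25 (SE) in Th17 against Th0, 0.55 ± 0.27 in Th2 against Th0 and -0.35 ± 0.25 in Th17 against Th2 (limma, adjusted p = 0.999, 0.795 and 0.936). The 95% interval of the Th2 difference from Th0 ran from -0.04 to 1.14. That difference was 0.26 without Th0 replicate 1, 0.31 without Th2 replicate 2 and 0.36 without the 3 arrays apart, and the difference in Th17 against Th2 ranged from -0.49 to -0.11 with 1 array left out. On Th2 replicates 2 and 3 and Th17 replicate 4, Bcl2l1 deviated from its mean over the 10 arrays by 0.78, 0.02 and 0.19. Bcl2 deviated there by -1.10, -1.06 and -1.30.

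Bak1 (probe set 17342676), the effector that forms pores in the mitochondrial membrane together with Bax, had the smallest p of the family over the 3 groups (limma F test, unadjusted p = 0.0257, adjusted p = 0.773). It was at 7.43, 7.58, 7.60 and 7.36 in Th17 cells, 7.51, 6.81 and 6.53 in Th2 cells and 7.40, 8.09 and 7.72 in Th0 cells. Th2 replicates 2 and 3 lay below every Th17 and Th0 array, and Th2 replicate 1 lay within the range of both. Its mean was 6.95 ± 0.51 in Th2 (SD, n = 3) and 7.74 ± 0.34 in Th0 cells (SD, n = 3), a difference of -0.79 ± 0.25 (SE). Its unadjusted p was 0.00943 and its adjusted p = 0.767 in limma, so the 1.72-fold lower mean in Th2 cells did not pass. In Th17 against Th2 cells the difference was 0.54 ± 0.23 (SE; limma, unadjusted p = 0.0416, adjusted p = 0.754), and 0.02 without the 3 arrays apart. In Th17 against Th0 it was -0.25 ± 0.23 (adjusted p = 0.999). Leaving out Th2 replicate 1 gave a difference of -1.07 in Th2 against Th0 with a limma adjusted p of 0.0368, in a setting where 1.94% of all genes were called. Without the 3 arrays apart, which leaves that replicate as the lone Th2 array, the difference was -0.23. On Th17 replicate 4, where Bcl2 and Mcl1 were low, Bak1 deviated from its mean over the 10 arrays by -0.04.

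Bcl2l11 (probe set 17375961), the gene of Bim, had the widest range of the family, 2.30 between the lowest and the highest array. It was at 6.49, 6.57, 6.64 and 4.90 in Th17 cells, 6.49, 7.21 and 6.51 in Th2 cells and 6.06, 7.14 and 5.71 in Th0 cells. The 3 other Th17 arrays lay within 0.15 of each other, while Th17 replicate 4 was the lowest array of the series. Th2 replicates 2 and 3, low in Bcl2, were not low in Bcl2l11. The difference was -0.15 ± 0.45 (SE) in Th17 against Th0, 0.43 ± 0.48 in Th2 against Th0 and -0.58 ± 0.45 in Th17 against Th2 (limma, adjusted p = 0.999, 0.907 and 0.936). Without Th17 replicate 4 the difference of Th17 from Th0 was 0.26, with the sign turned, and without all 3 arrays apart that of Th17 from Th2 was 0.08. The within-group spread of Bcl2l11 (residual SD 0.71) was above that of 97% of all genes.

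Bim acts by binding Bcl2, so the log2 value of Bcl2l11 minus that of Bcl2 was formed on each array and expressed relative to its Th0 mean. It was 0.37, 0.33, 0.17 and 0.34 on Th17 replicates 1 to 4, -0.21, 2.45 and 1.72 on the Th2 replicates and -0.05, 0.87 and -0.83 on the Th0 replicates. The 4 Th17 arrays stayed within 0.20 of each other, Th17 replicate 4 among them, since Bcl2 and Bcl2l11 were both low there. Th2 replicates 2 and 3 were the highest of the 10 arrays and Th2 replicate 1 lay within the Th0 range. Bcl2l11 minus Mcl1, formed the same way, was 0.33, 0.22, 0.37 and -0.81 in Th17, 0.11, 1.48 and 0.91 in Th2 and -0.20, 0.81 and -0.60 in Th0 cells. These values describe messenger RNA and no test was made of them.

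**Figure D3:**
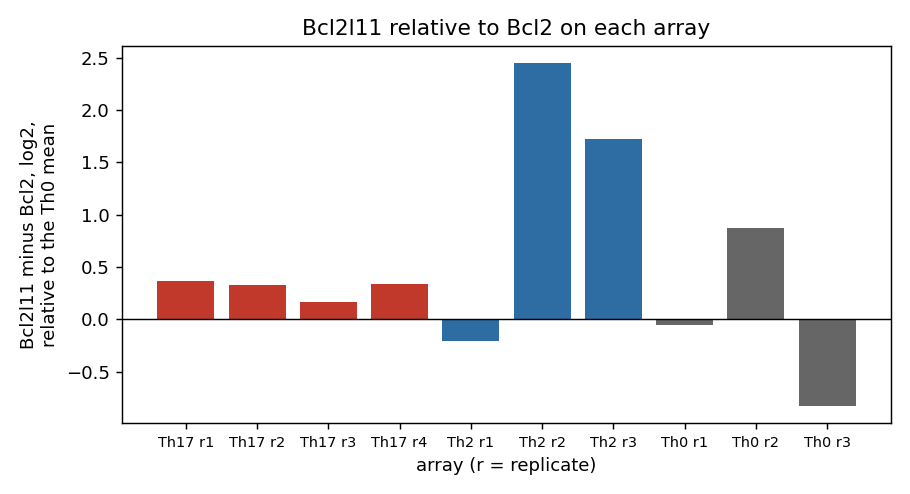
Bcl2l11 minus Bcl2 in log2 units, relative to the mean of the Th0 arrays (vertical axis), on each array (red Th17, blue Th2, grey Th0; r = replicate); bars start at 0 and are single arrays. Th2 replicates 2 and 3 reached 2.45 and 1.72, and the 4 Th17 arrays lay between 0.17 and 0.37.

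Pmaip1 (probe set 17351414), the gene of Noxa, which binds Mcl1 and promotes its removal, had the largest positive difference of the family in Th17 against Th0. It was at 4.33, 4.85, 5.36 and 4.22 in Th17 cells, 4.14, 4.42 and 4.36 in Th2 cells and 4.28, 3.99 and 3.92 in Th0 cells. Th17 replicates 2 and 3 were the 2 highest arrays, and Th17 replicate 4 lay below Th0 replicate 1. All values other than those of Th17 replicates 2 and 3 were weak, at 4.42 or less and not far above the array medians of 3.39 to 3.61. The mean was 4.69 ± 0.52 in Th17 (SD, n = 4) and 4.06 ± 0.19 in Th0 cells (SD, n = 3), a difference of 0.63 ± 0.25 (SE) or 1.54-fold. It did not pass (limma, unadjusted p = 0.0298, adjusted p = 0.906). The difference was 0.40 without Th17 replicate 3 and 0.78 without the 3 arrays apart. The 2 high arrays were also high in basophil and mast cell markers, with Cpa3, a mast cell and basophil protease, at 9.28 and 9.35. On Th0 replicate 1, with Cpa3 at 10.74, Pmaip1 was at 4.28, the highest of the Th0 values. In Th17 against Th2 the Pmaip1 difference was 0.39 ± 0.25 (SE; limma, adjusted p = 0.912). It was 0.71 without the 3 arrays apart, where Th2 replicate 1 is the lone Th2 array. Without the 3 arrays high in basophil and mast cell markers the differences were 0.32 in Th17 against Th0 and -0.03 in Th17 against Th2. The part of those cells in the Pmaip1 values was not tested. The 8 markers of the list averaged between 3.34 and 5.85 in Th17, 3.32 and 4.33 in Th2 and 3.52 and 6.93 in Th0 cells.

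The other 3 BH3-only genes were weakly measured, close to the array medians of 3.39 to 3.61. Bid (probe set 17470457), which links death receptors to mitochondria once cut by caspase 8, was at 4.24, 3.58, 4.05 and 4.04 in Th17, 3.49, 4.43 and 4.21 in Th2 and 4.00, 3.93 and 3.94 in Th0 cells. The 3 Th0 values lay within 0.07 of each other and inside the range of both other groups. Bbc3 (probe set 17474097), the gene of the p53-induced protein Puma, was at 3.18, 3.63, 3.41 and 3.50 in Th17, 4.05, 3.37 and 3.61 in Th2 and 3.30, 3.91 and 3.21 in Th0 cells. Bmf (probe set 17389724), whose protein is tethered to the cytoskeleton until released by stress, was at 3.59, 3.53, 3.86 and 3.71 in Th17, 3.73, 3.48 and 3.74 in Th2 and 3.81, 3.31 and 3.48 in Th0 cells. The ranges of the 3 populations overlapped for each of these genes. Their differences lay between -0.24 (Bbc3, Th17 against Th2) and 0.20 (Bbc3, Th2 against Th0), and their adjusted p-values in limma were 0.912 or higher. The 95% intervals of Bmf were the narrowest of the family, from -0.21 to 0.49 in Th17 against Th0, -0.26 to 0.49 in Th2 against Th0 and -0.33 to 0.37 in Th17 against Th2.

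**Figure D4:**
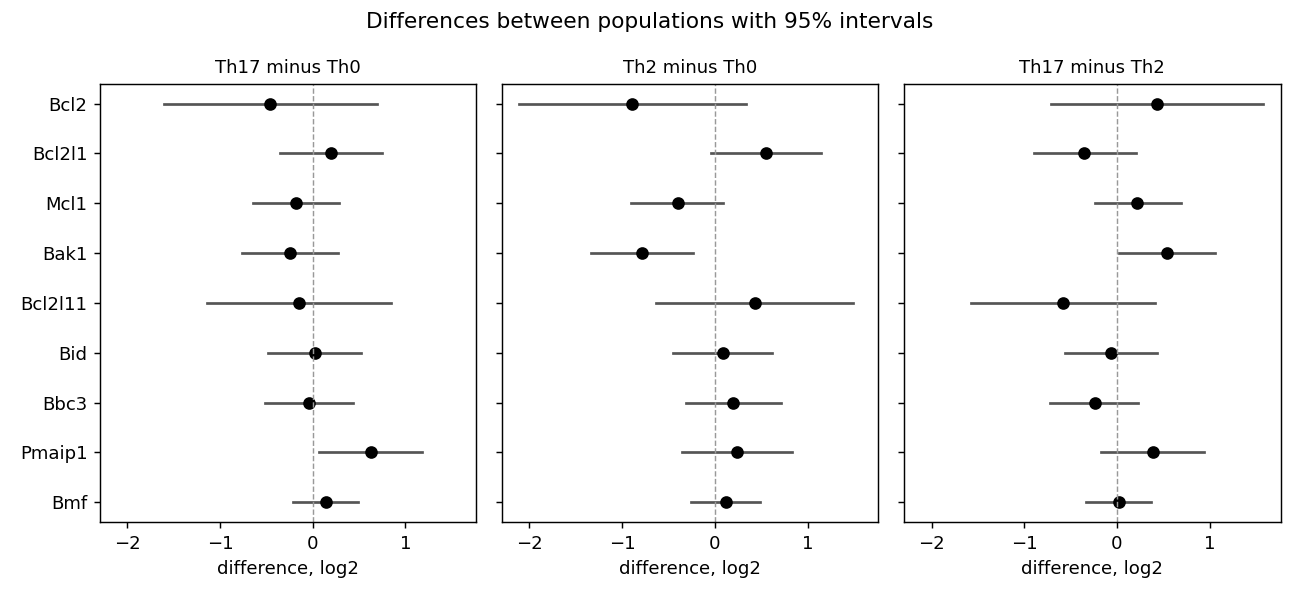
Difference of group means in log2 units (horizontal axis; points) with its 95% interval from limma (lines) for the 9 genes in the 3 comparisons. The intervals of Pmaip1 in Th17 against Th0 (0.07 to 1.18) and of Bak1 in Th2 against Th0 (-1.34 to -0.24) and Th17 against Th2 (0.02 to 1.06) leave out 0, before adjustment over all genes; without the 3 arrays apart the last of these differences was 0.02.

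The order of the group means was not shared within a class of the family. Bcl2, Mcl1 and Bak1 had the order Th0, Th17, Th2 from high to low. Bcl2l1 and Bid had the order Th2, Th17, Th0, Bcl2l11 and Bbc3 the order Th2, Th0, Th17, and Pmaip1 and Bmf the order Th17, Th2, Th0. No neighbours in these orders passed the test. In Th2 against Th0 cells the 3 guardians differed by -0.89 (Bcl2), -0.40 (Mcl1) and 0.55 (Bcl2l1), so their signs were mixed. The 5 BH3-only genes all had higher means in Th2 than in Th0 cells, by 0.09 (Bid) to 0.43 (Bcl2l11), and none of these differences passed the test. Neither pattern held without the 3 arrays apart, where Th2 replicate 1 is the lone Th2 array. There Bid differed by -0.47, and the other BH3-only genes stayed higher in Th2. The guardians differed by 0.39 (Bcl2), 0.08 (Mcl1) and 0.36 (Bcl2l1).

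**Figure D5:**
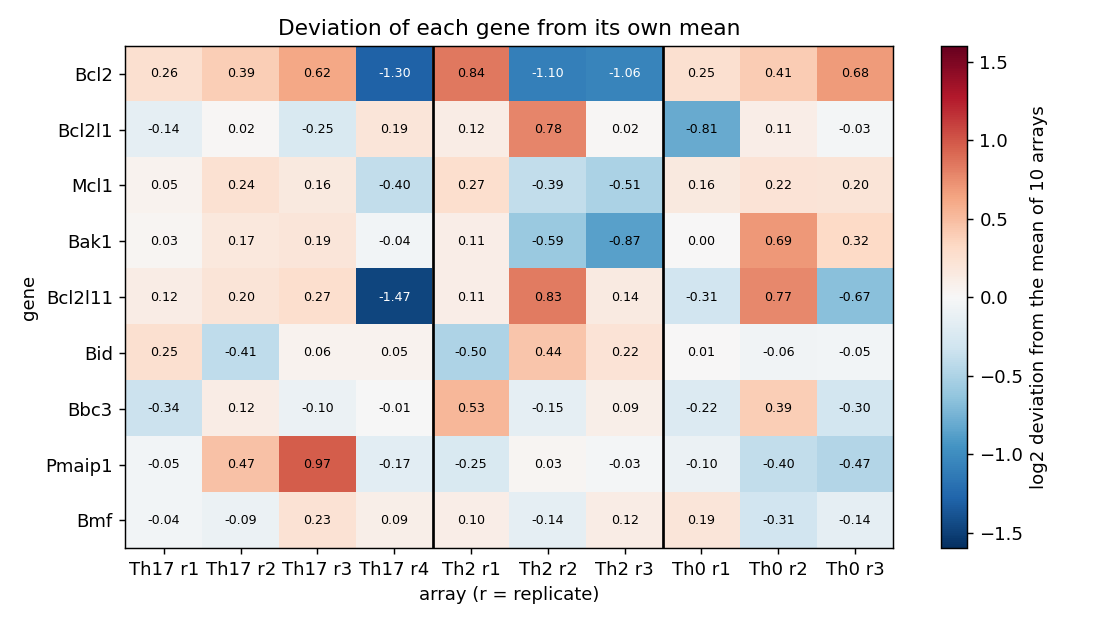
Log2 deviation of each gene (rows) from its own mean over the 10 arrays, on each array (columns; r = replicate), with blue below and red above the mean. Bcl2 and Mcl1 deviate downward together on Th17 replicate 4 and on Th2 replicates 2 and 3, whereas Bcl2l11 deviates downward on Th17 replicate 4 (-1.47) and upward on Th2 replicate 2 (0.83).

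The genes whose pattern over the 10 arrays was most like that of Bak1 were Edem1 (Pearson r = 0.974), Egln1 (0.969) and Dhx57 (0.958). For Bcl2l11 they were Scyl3 (r = 0.976), Zap70 (0.952), a kinase of T cell receptor signalling, and Fscn2 (0.932). The arrays fall into 2 sets on the first component, and over the 7 arrays of the larger set r was 0.909, 0.879 and 0.767 for the first 3 genes and 0.973, 0.953 and 0.764 for the others. These values are descriptions over arrays that share groups and scaling, picked as the highest of the genes considered.

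Further genes of the apoptosis pathway were also not called in any comparison. Of 3 other guardian genes measured, none passed, and Bcl2a1a, a guardian induced by NF-kappaB whose probes may also detect its close paralogs, differed by -0.68 in Th17 against Th2 (limma, adjusted p = 0.775), and by -0.28 without the 3 arrays apart. Bcl2l2, the gene of Bcl-w, differed by 0.42 there (adjusted p = 0.835). Of 9 other effector and BH3 genes none passed, with 3 higher and 6 lower in Th17 against Th0, 1 higher and 8 lower in Th2 against Th0, and 7 higher and 2 lower in Th17 against Th2. Bnip3, a hypoxia-induced mitochondrial protein, differed by -1.22 in Th2 against Th0 (adjusted p = 0.777), and Bad, which is inactivated by growth factor signalling, by -0.44 (0.814). Leaving out the 3 arrays apart gave -0.53 and 0.16, and the counts were 3 higher and 6 lower in Th2 against Th0 and 4 higher and 5 lower in Th17 against Th2. Their medians, -0.03, -0.06 and 0.06, were close to those of all genes.

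Downstream of the mitochondria, 17 caspase and apoptosome genes had 0 calls in limma. In Th2 against Th0 cells 13 of them were lower and 4 higher, with a median of -0.32 beside -0.01 over all genes. Of the 17, 4 had an unadjusted p under 0.05, beside 6.34% of all genes. Xiap, an inhibitor of caspases, differed by -0.52 (adjusted p = 0.767) and Htra2, a mitochondrial protease that antagonises such inhibitors, by -0.80 (0.769). The direction of the list turned without the 3 arrays apart, with 12 higher, 5 lower and a median of 0.08, and Xiap differed by -0.37 and Htra2 by -0.02. The list's mean was 6.64, 6.32, 6.51 and 6.21 in Th17, 6.68, 6.16 and 6.02 in Th2 and 6.39, 6.77 and 6.66 in Th0 cells, so it was lowest on the 3 arrays with low Bcl2. In Th17 against Th0 the list had 2 higher and 15 lower members (median -0.15), and in Th17 against Th2 13 higher and 4 lower (median 0.09). Those counts without the 3 arrays apart were 7 higher and 10 lower (median -0.12) and 6 higher and 11 lower (median -0.19).

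Among 10 genes of the death receptor pathway, which reaches the mitochondria through Bid, none was called. Tnfrsf25, the death receptor DR3, was at 6.45, 5.70, 5.76 and 5.71 in Th17, 5.22, 4.94 and 5.03 in Th2 and 4.85, 5.10 and 4.96 in Th0 cells, so that every Th17 array lay above every other. Its difference was 0.93 ± 0.19 (SE) from Th0 and 0.84 ± 0.19 from Th2 (limma, adjusted p = 0.201 and 0.282). Of all genes, 7.57% had groups that did not overlap in Th17 against Th0, and 5.6% in Th17 against Th2. Fasl, the ligand of Fas, differed by -1.44 in Th17 against Th2 (adjusted p = 0.464), where it was at 3.03, 3.12, 3.30 and 3.48 in Th17 and 3.91, 5.92 and 4.18 in Th2 cells, and by -0.76 without the 3 arrays apart.

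Of 14 measured genes of p53 and its targets, the pathway that induces Bbc3 and Pmaip1, 11 were higher and 3 lower in Th2 against Th0 (median 0.29, 0 called). In Th17 against Th0 7 were higher and 7 lower (median -0.01), and in Th17 against Th2 2 were higher and 12 lower (median -0.17), again with 0 called. Without the 3 arrays apart, Th2 replicate 1 is the lone Th2 array, so the counts with Th2 rest on 1 array. There 13 were higher and 1 lower in Th2 against Th0 (median 0.27), and 2 higher and 12 lower in Th17 against Th2 (median -0.54). The list's mean lay between 6.14 and 6.27 in Th17, 6.45 and 6.75 in Th2 and 5.99 and 6.31 in Th0 cells. Plk2, a p53-induced kinase, was at 4.66, 5.36, 5.16 and 4.99 in Th17, 6.11, 8.31 and 7.59 in Th2 and 6.97, 4.66 and 5.87 in Th0 cells, a difference of -2.29 in Th17 against Th2 (limma, adjusted p = 0.308). Cdkn1a, the p53-induced cell cycle inhibitor p21, differed by -0.69 there (adjusted p = 0.383). Their differences were -1.05 and -0.65 without the 3 arrays apart. Bbc3 differed by -0.24 and Pmaip1 by 0.39 in Th17 against Th2.

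Of 18 cytokine receptors and regulators linked to survival, 0 were called in each comparison. Of them 3 had an unadjusted p under 0.05 in Th17 against Th0, beside 5.17% of all genes. In Th2 against Th0 there were 4, beside 6.34%, and in Th17 against Th2 7, beside 6.25%. Foxo1, one of the FoxO transcription factors, which are known to activate Bcl2l11 when growth factor signalling is low, was at 8.38, 7.98, 8.10 and 8.16 in Th17, 7.55, 7.50 and 7.52 in Th2 and 7.31, 7.52 and 7.26 in Th0 cells. All Th17 arrays lay above all others, with a difference of 0.79 ± 0.14 (SE) from Th0 (limma, adjusted p = 0.0838) and 0.63 ± 0.14 from Th2 (0.241). The shares of all genes whose groups did not overlap in these comparisons were 7.57% and 5.6%. Bach2, a repressor that restrains effector differentiation, differed by 0.97 in Th17 against Th0 (adjusted p = 0.563). On the same Th17 arrays Bcl2l11 ranged from 4.90 to 6.64. Of 11 genes whose products bind Bcl2 proteins or set their turnover none passed; Dynll2, the light chain that tethers Bmf, differed by -0.41 in Th17 against Th0 (adjusted p = 0.656), and Bcap31, a Bcl2-binding protein of the endoplasmic reticulum, by -0.71 in Th2 against Th0 (0.777; -0.03 without the 3 arrays apart).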

How the data were processed

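Expression was measured on 10 arrays. The deposited values are log2 signals that the authors obtained by RMA with Affymetrix Expression Console 1.3.0.187, per the submitters' processing notes, and per the labels' protocols RNA was amplified and biotin-labelled. RMA scales arrays to each other, so a change of total RNA per cell cannot be seen. The deposited arrays still differed in spread, with interquartile ranges from 1.95 to 2.41. Those of the 3 arrays apart were 2.09 (Th17 replicate 4), 2.15 (Th2 replicate 2) and 1.95 (Th2 replicate 3). Th0 replicate 1, not among them, was at 2.08. The part of this spread in the values was not tested. The probe sets' genome build is not given in the sources. Groups and numbers follow the titles; the description of Th2 replicate 3 carries the number 4. The titles call the replicates biological, and no source says whether they came from separate animals or cultures, so p-values reflect only how these samples vary, and the number of arrays limits precision.

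Of 41345 probe sets 23521 carried 1 symbol, 1814 several, and 16010 were not named; symbols matched RefSeq (GRCm38.p6) by Entrez ID for 23328. The brightest single-symbol probe set stood for a gene (22180 genes, no filter). limma 3.58.1 in R 4.3.3 fitted 3 group means to all arrays (7 residual degrees of freedom; lmFit, eBayes, two-sided tests, Benjamini-Hochberg over all genes per contrast, threshold 0.05). The code was run on simulated data with independent noise and shifts larger than any member difference. These settings differ from the data, so that run does not bear on power or error here. Members, gene lists and alternatives were chosen with earlier results of these data known. All members are named; of each pathway list, called genes or the 2 with the smallest p over the 3 groups; and Il17f, Il17a, Gata3 and Il4 as checks of the labels. Lists of cell markers are given by their means, without the genes that rule picks except Zap70 and Thy1. Cpa3, Cd3e, Cd4, S100a8, Ighm and Cd8b1 were chosen after their values were seen. Likeness was taken for the members with the smallest p and the widest range, leaving out unnamed gene models, small RNAs, segments of antigen receptors, and odorant or pheromone receptors. Same-numbered arrays of different groups did not deviate together (r of all genes from -0.31 to 0.30 by the titles' numbers), so the numbers were not treated as pairs. By the descriptions' numbers r ran from -0.29 to 0.49, the highest being Th2 replicate 3 with Th17 replicate 4, both among the arrays apart. The block on those numbers, and pathway values without the arrays apart, were added after the data were seen.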

Additional observations from a re-analysis of the deposited data

Results flagged for a closer look

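Bcl2l11 was at 4.90 on Th17 replicate 4, with the other Th17 arrays between 6.49 and 6.64. The gap was 0.912 of the group's range, above Dixon's 95% critical value for 4 samples. The other 8 members were below that value in Th17 cells (Bcl2 at 0.817), and groups of 3 were not tested. Chance puts about 1 in 20 groups above it. That array also stood apart over all genes.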

How the results depend on the processing

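No family member was called under 20 of the 21 alternatives; without Th2 replicate 1 the number in Th2 against Th0 was 1 (Bak1). Of 564 recomputed member differences 534 kept their direction and their side of the threshold, 1 became called (Bak1) and 29 turned sign, 12 of those when 1 array was left out. Without the 3 arrays apart on the first component, the differences that turned were Bcl2l11 in Th17 against Th0 (0.26), Bcl2, Mcl1 and Bid in Th2 against Th0 (0.39, 0.08 and -0.47), and Bcl2, Mcl1, Bcl2l11, Bid and Bmf in Th17 against Th2 (-0.42, -0.12, 0.08, 0.47 and -0.07). Without Th17 replicates 2 and 3 and Th0 replicate 1, which had the most basophil marker signal, Bcl2l1 turned in Th17 against Th0 (-0.01), and Bcl2, Bid and Pmaip1 in Th17 against Th2 (-0.08, 0.10 and -0.03). Bcl2l11 in Th17 against Th0 also turned with array weights (0.14) and with the replicate block (0.26), in which Th17 replicate 4 has no partner and adds nothing to the difference. With the replicate block on the descriptions' numbers, chosen after seeing the data, Bcl2l11 (0.10) and Bid (-0.02) turned in Th17 against Th0. With 1 array left out, Th17 minus Th0 ranged from -0.08 to 0.38 for Bcl2l1, -0.45 to 0.27 for Bcl2l11, -0.07 to 0.15 for Bid and -0.17 to 0.18 for Bbc3. Bid ranged from -0.11 to 0.36 in Th2 against Th0 and, like Bmf (-0.06 to 0.07), turned in Th17 against Th2 (-0.34 to 0.13). The cause was not tested.

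The number of all genes called in Th17 against Th0 (23) was 4 with arrays centred on their median, 60 with array weights, 8 with the replicate block, 5 with that on the descriptions' numbers, 46 without the 3 arrays apart, 3 without the 3 arrays high in basophil markers and 2 to 36 with 1 array left out, moving by over 1.5 times without each of the 10. In Th17 against Th2 (17) it was 330 with array weights, 11 with the replicate block, 5 with that on the descriptions' numbers, 6 without the arrays high in basophil markers and 3 to 298 with 1 array left out (298 without Th2 replicate 1, 3 without Th2 replicate 2). In Th2 against Th0 (0, with 1407 genes at an unadjusted p under 0.05) it was 2 without the arrays apart and 0 to 431 with 1 array left out (431 without Th2 replicate 1, 1 without Th0 replicate 2). Neither replicate block called a member. Weak signal limits Bid, Bbc3 and Bmf, and also Pmaip1 on all arrays other than Th17 replicates 2 and 3.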
